A study of Homo sapiens with 12 samples.

Results

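The genes described here are 41 human DNA repair and checkpoint genes, named one by one as a list. Each was read from the probe sets that the array annotation assigns to that gene alone, and among several the one whose mean over the 12 arrays was highest stood for the gene. Of the 41 genes, 36 were measured in this way, out of 19775 genes measured in all. BRCA2, RBBP8, FANCA, FANCD2 and PMS2 had no probe set of their own in the annotation used here and were not analysed here. The list names the genes and sets no threshold on their values.

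The cells were U937, an established human line from a histiocytic lymphoma that resembles an immature monocyte. Every culture carried the same Tet-On cassette (TRIPZ shRNAmir), selected with puromycin, which makes a hairpin RNA against both forms of the zinc finger gene ZXDC when doxycycline is present. The groups, each of 3 biological replicates, were PMA with doxycycline, PMA, vehicle with doxycycline, and vehicle. PMA, a phorbol ester that activates protein kinase C and pushes U937 cells toward a macrophage-like state, was given at 100 nM, and the vehicle was 0.1% DMSO. Doxycycline was added on each of 4 days at 0.5 µg/mL, and the agent followed the first 2 of them and acted for 3 days, as the labels state, and these durations do not add up. All groups came from 1 hairpin construct in 1 parental line, and no group had a hairpin without a target. An effect of doxycycline and an effect of the hairpin therefore cannot be told apart.

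Cells mend DNA by several routes. Homologous recombination copies a sister chromatid to repair a double-strand break and works in cells that have replicated their DNA, the Fanconi anemia pathway unhooks crosslinks between strands, and non-homologous end joining seals broken ends at any stage of the cell cycle. Mismatch, base excision and nucleotide excision repair remove wrong or damaged bases, and the ATM and ATR kinases with CHEK1 and CHEK2 stop the cell cycle while damage is mended. PMA is known to take U937 cells out of the cell cycle, and many recombination genes are known to be transcribed mainly in dividing cells.

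To show what lies upstream of the genes that the PMA results turn on, the 250 bases before the transcription start are printed for those with the largest falls among genes with a single listed start, and for XPC, a gene without a call. The sequences are RefSeq promoters of build GRCh38.p14, 5′ to 3′ on the gene's own strand, and the choice was made after the table had been seen. Capitals mark matches, on either strand, to the letters TTCCCGC or TTGGCGC (known from E2F sites), TTTGAA or TTCGAA (known from cell cycle homology regions), CCAAT (the NF-Y box) and CACGTG (the E box). The BRIP1 sequence is chr17:61863529-61863778 on the minus strand, that of RAD51AP1 is chr12:4538640-4538889 on the plus strand, and that of BLM is chr15:90717096-90717345 on the plus strand. Those of BARD1 and XPC are chr2:214809684-214809933 and chr3:14178602-14178851, both on the minus strand.
BRIP1: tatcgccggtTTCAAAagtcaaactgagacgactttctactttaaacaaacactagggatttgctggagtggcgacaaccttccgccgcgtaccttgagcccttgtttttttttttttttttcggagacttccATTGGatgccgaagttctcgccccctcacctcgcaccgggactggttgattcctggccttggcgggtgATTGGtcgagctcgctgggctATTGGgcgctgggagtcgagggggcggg
RAD51AP1: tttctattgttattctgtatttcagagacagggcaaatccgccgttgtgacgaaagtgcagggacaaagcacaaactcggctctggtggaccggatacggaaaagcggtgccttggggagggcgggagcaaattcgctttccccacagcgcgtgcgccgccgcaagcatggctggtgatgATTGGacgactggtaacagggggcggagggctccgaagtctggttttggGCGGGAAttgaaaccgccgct
BARD1: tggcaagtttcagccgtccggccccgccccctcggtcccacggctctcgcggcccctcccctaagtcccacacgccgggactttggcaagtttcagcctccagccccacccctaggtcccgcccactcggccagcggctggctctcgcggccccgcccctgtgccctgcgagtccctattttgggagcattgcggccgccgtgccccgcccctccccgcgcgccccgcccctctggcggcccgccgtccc
BLM: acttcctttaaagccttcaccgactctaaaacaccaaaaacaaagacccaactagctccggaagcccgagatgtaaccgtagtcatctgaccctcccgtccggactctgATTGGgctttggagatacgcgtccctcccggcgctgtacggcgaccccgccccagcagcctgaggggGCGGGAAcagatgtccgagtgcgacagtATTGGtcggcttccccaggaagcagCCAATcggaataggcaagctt
XPC: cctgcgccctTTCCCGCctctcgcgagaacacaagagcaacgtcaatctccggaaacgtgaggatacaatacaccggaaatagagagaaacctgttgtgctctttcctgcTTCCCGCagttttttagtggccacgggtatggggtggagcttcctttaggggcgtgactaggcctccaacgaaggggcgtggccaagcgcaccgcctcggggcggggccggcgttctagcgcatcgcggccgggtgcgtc
RAD51AP1 and BLM hold E2F letters that begin 21 and 74 bases before the start, and both also hold CCAAT. BRIP1 has 3 copies of CCAAT, cell cycle homology letters that begin 240 bases before the start, and no E2F letters. BARD1 has no match, and XPC has 2 matches to the E2F letters. No matches overlapped in these sequences.

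Over the 22 genes that fell with PMA in both comparisons below and have a listed promoter, 12 (54.5%) held E2F letters in these 250 bases, against 2 of the 10 other measured genes (20%) and 9.4% of 27305 genes with a listed promoter. Per promoter rather than per gene the letters stood in 7.81% of 35116. CCAAT stood before 15 (68.2%) of the genes that fell, 5 (50%) of the others and 37% of all genes. The cell cycle homology letters stood before 3 (13.6%), 2 (20%) and 17.2%, and the E box before 1 (4.55%), 0 and 7.73%. A gene with several starts had more chances of a match, and the median GC content of the promoters was 63.6% in the genes that fell, 68% in the others and 58% over all. In the longer listed sequences, which run past these 250 bases, E2F letters stood in 15 of the 22 genes that fell (68.2%). There they also stood in 5 of the 10 others (50%) and in 11% of all genes. The gap in E2F letters between the genes that fell and the others thus depended on the window. These matches describe letters and were not tested.

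Over the whole series, array medians lay between 5.16 and 5.22 (log2), and arrays of 1 group correlated at 0.9897 to 0.9972 over all genes. The 4 arrays numbered 1 stood apart in a measure of RNA quality, the gap between 3′ and 5′ control probe sets of ACTB, with 1.99 to 2.72 (log2) against 0.71 to 1.64 on the other 8. The same gap for GAPDH did not set them apart, with 0.17 to 0.25 against 0.12 to 0.25 on the other 8. ZXDC, the hairpin target, averaged 7.28 ± 0.23 in PMA with doxycycline and 7.78 ± 0.24 in PMA, and 7.28 ± 0.14 in vehicle with doxycycline and 7.78 ± 0.20 in vehicle (log2, SD, n = 3). Its fall averaged over both agents, -0.50, had an exact permutation p of 0.005 (two-sided), the smallest that 400 relabelings can give. By limma over all genes its adjusted p was 0.613 in PMA and 1 in vehicle. Of the monocyte and macrophage markers 5 of 8 measured were higher with PMA in both comparisons, and their mean level was 8.41 to 9.03 in PMA with doxycycline, 8.51 to 8.97 in PMA, 6.49 to 6.69 in vehicle with doxycycline and 6.50 to 6.71 in vehicle. Of the 6 promyelocyte markers 5 were lower in both, at 5.73 to 6.03 and 6.11 to 6.61 in the PMA groups with and without doxycycline, and 9.33 to 9.56 and 9.32 to 9.58 in the vehicle groups. The mean levels of 6 T cell, 6 fibroblast, 6 epithelial, 5 B cell and 4 erythroid markers did not leave the range of 4.21 to 6.03 on any array, with 1 B cell marker lower and 1 higher with PMA in each comparison and 1 T cell marker higher with doxycycline present. The part of these cell state changes in the results was not tested.

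The first question was what PMA did to the repair genes. With doxycycline, 26 of the 36 genes fell, 3 rose and 7 had no call, against 19.5% of all genes lower and 13.0% higher (Benjamini-Hochberg adjusted p under 0.05 in limma, which fits a linear model to every gene and shares its estimate of spread between genes). Without doxycycline 27 fell, 3 rose and 6 had no call, against 18.9% of all genes lower and 12.7% higher. Differences are on the log2 scale, where 1 is a 2-fold change in signal. The median log2 difference of the 36 was -1.06 with doxycycline and -1.15 without, beside -0.01 and 0.01 over all genes. The same 26 genes fell in both comparisons and the same 3, FANCE, ATM and XRCC1, rose in both, beside 16.8% and 10.6% of all genes that did so. In 26 genes all 6 PMA arrays lay below all 6 vehicle arrays, as in 17.5% of all genes, and in 3 all 6 lay above, as in 11.3%. Within each comparison the PMA arrays lay below their own vehicle arrays in 28 genes, beside 24.4% of all genes with doxycycline and 23.0% without, and above them in 3 and 4 genes, beside 18.1% and 18.8%. The signal comes from bulk RNA, so fewer cells of a kind and less RNA of a gene per cell cannot be told apart.

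**Figure D1:**
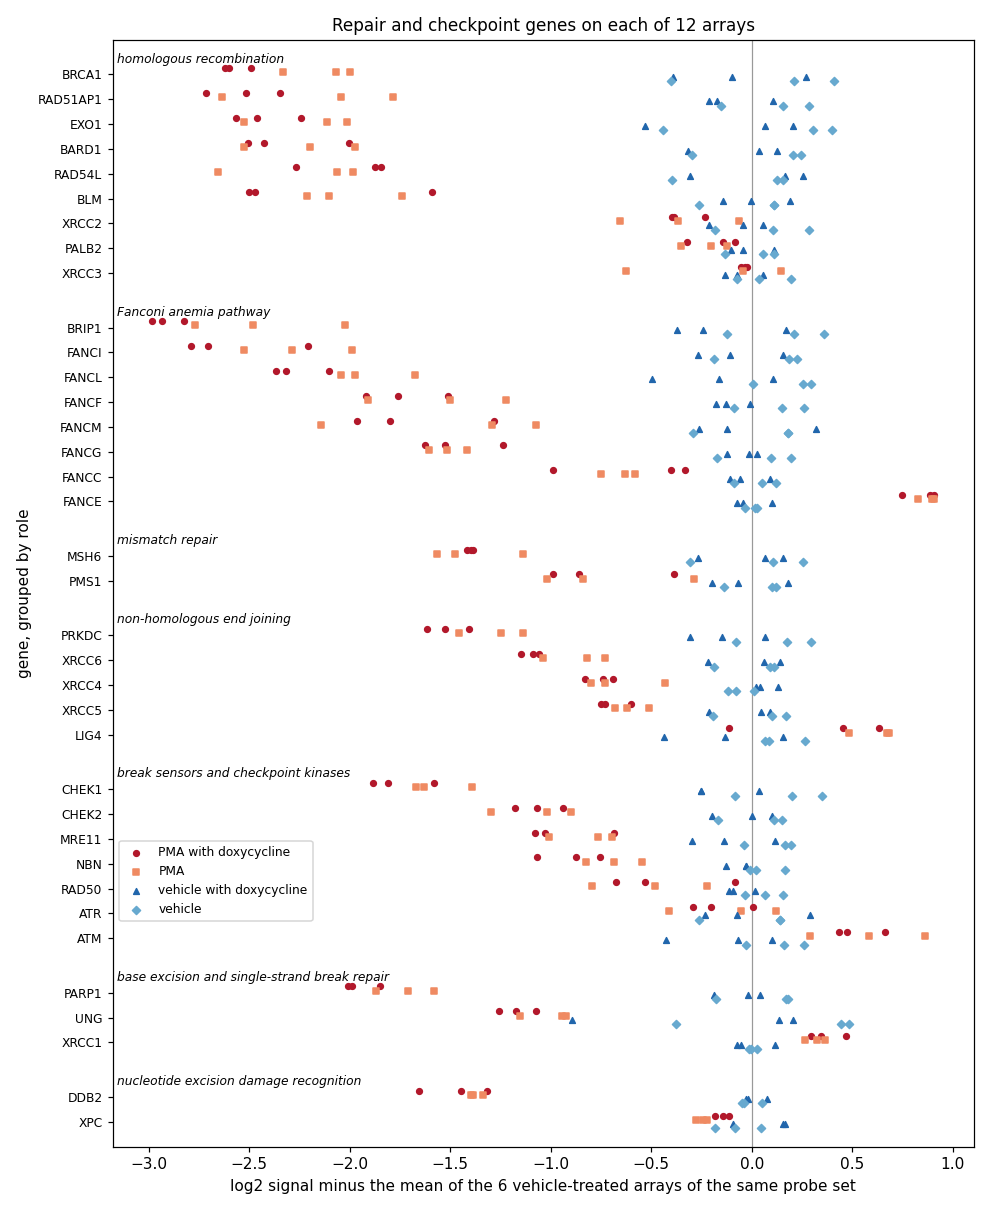
Log2 signal of each of the 36 genes on each of the 12 arrays (1 point per array), minus the mean of the 6 vehicle-treated arrays of the same probe set, with genes grouped by role. In 26 genes all PMA points lie left of all vehicle points, and in FANCE, ATM and XRCC1 they lie right of them.

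Both PMA comparisons ran on separate arrays, and they gave like values for the 36 genes. Arrays of the same number with and without doxycycline deviated together within each agent, so the comparisons were not independent of each other. Pearson's r of the differences was 0.991 across genes, which are not independent replicates. The median gap between them was 0.12 (log2) and the widest was 0.29. In each comparison 19 genes fell by at least 1 (log2), beside 6.88% of all genes with doxycycline and 6.27% without. Falls of at least 2 were seen in 9 genes, all in homologous recombination or the Fanconi anemia pathway, beside 1.32% and 1.05% of all genes.

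The 9 measured homologous recombination genes of the list had a median of -2.20 in each comparison, the lowest of the roles among the 36 listed genes. Of the 9, 6 fell in both and 3 had no call in either. BRCA1, which brings the recombination machinery to breaks, was 6.99, 6.88 and 6.86 (log2) in PMA with doxycycline, against 9.09, 9.38 and 9.75 in vehicle with doxycycline. Without doxycycline it was 7.48, 7.15 and 7.41 in PMA, against 9.08, 9.89 and 9.69 in vehicle. All 6 PMA arrays lay below all 6 vehicle arrays by more than 1.5 log2 units. The differences were -2.50 (SE 0.20, adjusted p 3.33e-07 by limma) and -2.21 (SE 0.20, adjusted p 1.23e-06), which left 21.6% of the signal in PMA without doxycycline.

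The other falls in this role were of nearly the same size. RAD51AP1, which promotes the pairing of DNA strands, averaged 8.08 ± 0.19 in PMA with doxycycline and 10.51 ± 0.17 in vehicle with doxycycline (SD, n = 3), a difference of -2.43. EXO1, a nuclease that resects broken ends, differed by -2.33 with doxycycline and -2.30 without. BARD1, the partner that BRCA1 needs for its ubiquitin ligase activity, differed by -2.26 and -2.29. RAD54L, a motor protein that helps strands pair, differed by -2.03 and -2.20, and BLM, the helicase lost in Bloom syndrome, by -2.20 and -2.01. The groups did not overlap in any of these 6 genes.

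The 3 recombination genes without a call differed less. PALB2, which links BRCA1 to its partner BRCA2, averaged 9.24 ± 0.12 in PMA with doxycycline and 9.41 ± 0.10 in vehicle with doxycycline (log2, SD, n = 3), with a 95% interval of the difference of -0.42 to 0.07. XRCC2 and XRCC3 also serve recombination. XRCC2 differed by -0.27 with doxycycline (adjusted p 0.229) and -0.43 without (adjusted p 0.0525), and the second value passed without PMA replicate 1 (adjusted p 0.0101) or vehicle replicate 1 (0.0202) by limma. Without all arrays numbered 1 both differences passed (-0.40, adjusted p 0.0354, and -0.70, adjusted p 0.00116). XRCC3 differed by 0.01 and -0.23, with intervals of -0.33 to 0.36 and -0.58 to 0.12. Its only probe set averaged 4.98 (log2) over the arrays, below the array medians, which limits what the missing call shows.

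All 8 measured genes of the Fanconi anemia pathway were called in both comparisons, 7 lower and 1 higher, with medians of -1.64 and -1.60. BRIP1, a helicase that binds BRCA1, fell further than any of the other 35 genes. It was 5.52, 5.41 and 5.36 (log2) in PMA with doxycycline, against 7.97, 8.10 and 8.51 in vehicle with doxycycline. It was 6.32, 5.57 and 5.86 in PMA, against 8.22, 8.55 and 8.70 in vehicle. The groups were far apart, with differences of -2.77 (SE 0.19, adjusted p 8.36e-08 by limma) and -2.57 (SE 0.19, adjusted p 1.93e-07), or 6.80-fold and 5.95-fold lower signal.

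FANCI, which with FANCD2 is the pair of proteins that the pathway marks with ubiquitin, fell (-2.49 and -2.34, log2), and FANCL, the ligase that places the mark, fell (-2.07 and -2.08). Subunits of the core complex around FANCL spread widely. FANCF fell (-1.62 and -1.65), FANCM, the motor protein that anchors the complex to DNA, did so too (-1.66 and -1.52), and so did FANCG (-1.42 and -1.55). FANCC, another core subunit, fell less, with differences of -0.55 (adjusted p 0.0122 by limma) and -0.68 (adjusted p 0.00304), and the call with doxycycline was lost on the mean of its 3 probe sets (-0.26, adjusted p 0.0923) and without all arrays numbered 1 (-0.28, adjusted p 0.0882).

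FANCE, the core subunit that binds FANCD2, went the other way. It was 10.58, 10.72 and 10.74 (log2) in PMA with doxycycline, against 9.76, 9.79 and 9.93 in vehicle with doxycycline. It was 10.74, 10.73 and 10.66 in PMA, against 9.85, 9.80 and 9.86 in vehicle. Every PMA array was higher than every vehicle array, and the differences were 0.85 (SE 0.10, adjusted p 9.07e-06 by limma) and 0.88 (SE 0.10, adjusted p 7.75e-06). The signal was 1.80-fold and 1.84-fold higher, read from the 1 probe set that the gene has.

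**Figure D2:**
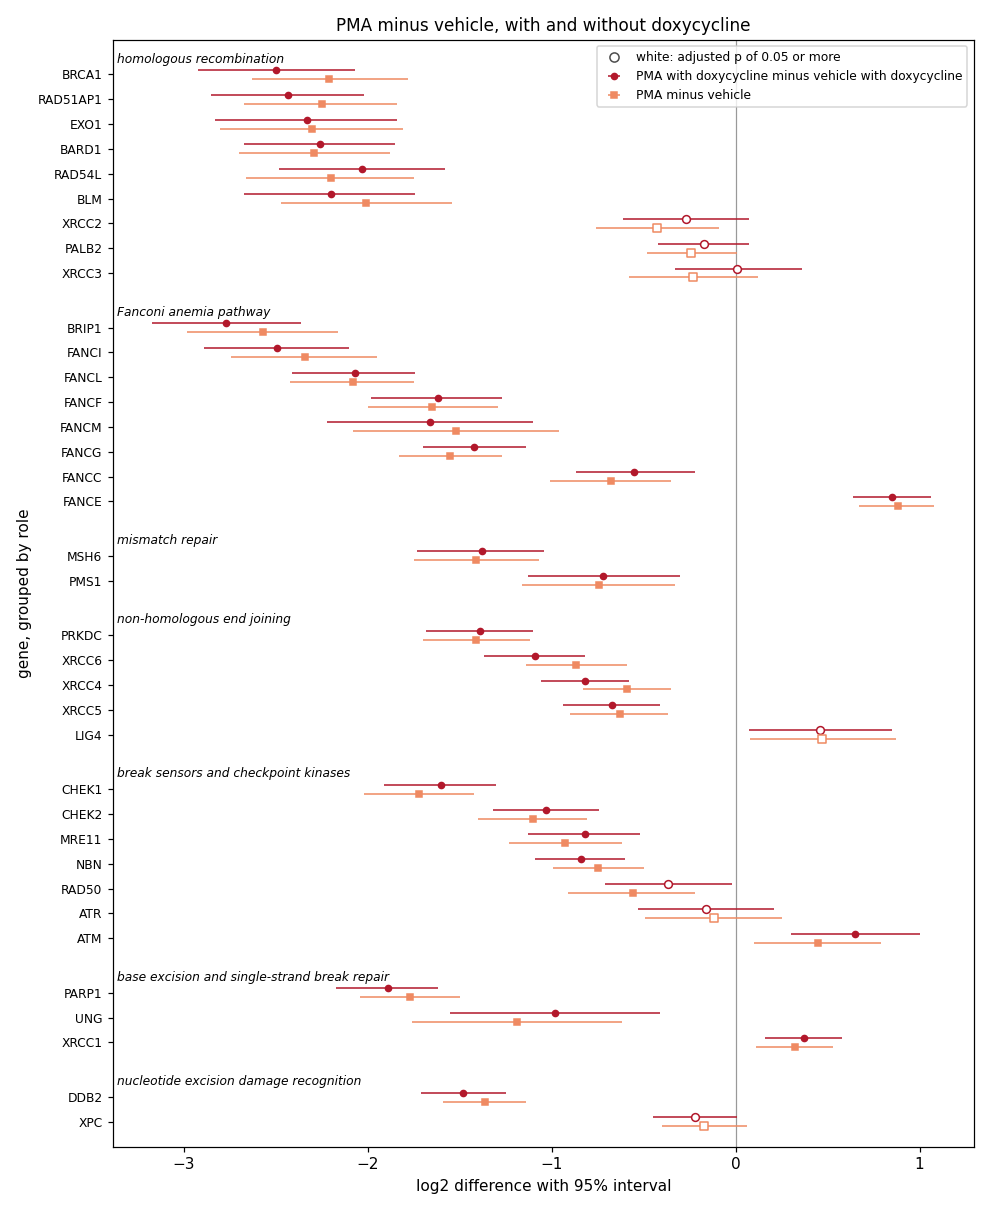
Log2 difference of PMA minus vehicle for each of the 36 genes, with and without doxycycline, with 95% intervals from limma; white markers had an adjusted p of 0.05 or more. The recombination and Fanconi anemia genes hold the 9 differences of -2 or below, and FANCE has the largest rise, at 0.85 and 0.88.

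Both measured mismatch repair genes fell. MSH6, a subunit of the complex that recognises mismatches, was 9.64, 9.61 and 9.63 (log2) in PMA with doxycycline, against 10.76, 11.09 and 11.18 in vehicle with doxycycline. It was 9.46, 9.55 and 9.89 in PMA, against 10.72, 11.28 and 11.13 in vehicle. The groups did not overlap, and the differences were -1.38 and -1.41 (SE 0.16 each, adjusted p 1.05e-05 and 1.02e-05 by limma). PMS1, a MutL family protein whose part in human mismatch repair is less clear, fell (-0.72 and -0.74). With doxycycline its call was lost on the mean of its 5 probe sets (-0.20, adjusted p 0.403), without PMA with doxycycline replicate 3 (adjusted p 0.0528) and without vehicle with doxycycline replicate 3 (0.0532).

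Of the 5 end joining genes 4 fell in both comparisons, with medians over the 5 of -0.82 and -0.63, smaller falls than in recombination. PRKDC, the catalytic subunit of the DNA-dependent protein kinase, was 9.81, 9.93 and 9.72 (log2) in PMA with doxycycline, against 11.03, 11.19 and 11.40 in vehicle with doxycycline. It was 10.09, 9.88 and 10.20 in PMA, against 11.26, 11.63 and 11.51 in vehicle. The groups did not overlap, and the differences were -1.39 and -1.41 (SE 0.13 each, adjusted p 2.08e-06 and 2.15e-06 by limma). The Ku subunits that clamp broken ends fell less. XRCC6 (Ku70) fell (-1.09 and -0.87, log2) and so did XRCC5, which is Ku80 (-0.67 and -0.63). XRCC4, the scaffold of the ligase, fell (-0.82 and -0.59).

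LIG4, the ligase that closes the break, had no call, with differences of 0.46 (adjusted p 0.0681) and 0.47 (adjusted p 0.0630) by limma. It was 7.02, 7.77 and 7.59 (log2) in PMA with doxycycline, against 7.0, 6.70 and 7.29 in vehicle with doxycycline, so that replicate 1 overlapped the vehicle arrays. It was 7.81, 7.62 and 7.82 in PMA, against 7.40, 7.20 and 7.22 in vehicle. Both differences passed after cyclic loess (0.59 and 0.58, adjusted p 0.0208 and 0.0233), and the one with doxycycline passed without PMA with doxycycline replicate 1 (0.68, adjusted p 0.00399) and without vehicle with doxycycline replicate 3 (0.61, adjusted p 0.0300). The one without doxycycline passed without PMA with doxycycline replicate 1 or 2 (adjusted p 0.0182 and 0.0495), which changes the shared spread and not the difference. Without all arrays numbered 1 both passed (0.68 and 0.51, adjusted p 0.00823 and 0.0399).

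Among the 7 break sensors and checkpoint kinases, 4 fell with doxycycline and 5 without, and ATM rose in both. CHEK1, the kinase that acts below ATR when replication stalls, was 6.53, 6.76 and 6.46 (log2) in PMA with doxycycline, against 8.09, 8.09 and 8.38 in vehicle with doxycycline. It was 6.95, 6.67 and 6.71 in PMA, against 8.26, 8.69 and 8.54 in vehicle. Every PMA array lay at least 1 log2 unit below every vehicle array. The differences were -1.60 and -1.72 (SE 0.14 each, adjusted p 8e-07 and 4.83e-07 by limma). CHEK2, the kinase that acts below ATM, fell (-1.03 and -1.10).

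ATM, the kinase that responds to double-strand breaks, was 9.58, 9.81 and 9.62 (log2) in PMA with doxycycline, against 9.25, 8.72 and 9.08 in vehicle with doxycycline. It was 10.01, 9.44 and 9.73 in PMA, against 9.41, 9.12 and 9.31 in vehicle. The PMA arrays were higher in each comparison, but in PMA replicate 2 by only a narrow margin. The difference with doxycycline was 0.65 (SE 0.16, adjusted p 0.00581 by limma). Without doxycycline it was 0.45 (SE 0.16), and its adjusted p of 0.0494 left the threshold in the fit over all probe sets (0.0600), without all arrays numbered 1 (0.0923) and when any of 9 single arrays was left out (0.0505 to 0.192). The 9 were all 3 of PMA with doxycycline, PMA replicates 1 and 3, vehicle with doxycycline replicate 3 and all 3 of vehicle.

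ATR, the kinase that answers stalled replication, averaged 8.52 ± 0.15 in PMA with doxycycline and 8.68 ± 0.27 in vehicle with doxycycline, and 8.57 ± 0.27 in PMA and 8.69 ± 0.23 in vehicle (log2, SD, n = 3). The groups overlapped, with differences of -0.16 (95% interval -0.53 to 0.21) and -0.12 (-0.49 to 0.25). The 3 subunits of the MRN complex, which binds broken ends and recruits ATM, did not pass alike. MRE11, its nuclease, fell (-0.82 and -0.93). NBN fell (-0.84 and -0.75), although only 1 of its 5 probe sets was called, and the mean of the 5 gave -0.27 (adjusted p 0.112 by limma) with doxycycline. RAD50 fell by 0.56 without doxycycline (adjusted p 0.0150) and differed by -0.37 with it (adjusted p 0.107). The RAD50 call without doxycycline was lost without PMA replicate 2 (0.0795) or vehicle replicate 2 (0.0595) and after cyclic loess (0.0617) or quantile normalization (0.0726). The one with doxycycline passed without PMA with doxycycline replicate 1 (0.0129), without all arrays numbered 1 (0.00733) and on the mean of the probe sets (-0.75, adjusted p 0.000579).

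Base excision and single-strand break repair had 2 falls and 1 rise. PARP1, the enzyme that marks single-strand breaks with poly(ADP-ribose), was 8.73, 8.87 and 8.71 (log2) in PMA with doxycycline, against 10.53, 10.76 and 10.70 in vehicle with doxycycline. It was 8.85, 9.14 and 9.01 in PMA, against 10.54, 10.89 and 10.90 in vehicle. The groups were tight and far apart, with differences of -1.89 (SE 0.13, adjusted p 6.04e-08 by limma) and -1.77 (SE 0.13, adjusted p 1.4e-07). UNG, the glycosylase that removes uracil, fell (-0.98 and -1.19), and its vehicle with doxycycline arrays were uneven, at 8.73, 9.76 and 9.83. Its call with doxycycline was lost without vehicle with doxycycline replicate 2 (-0.82, adjusted p 0.0540) or replicate 3 (-0.79, adjusted p 0.0573).

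XRCC1, the scaffold that PARP1 recruits to single-strand breaks, was 7.64, 7.47 and 7.52 (log2) in PMA with doxycycline, against 7.10, 7.29 and 7.12 in vehicle with doxycycline. It was 7.50, 7.44 and 7.54 in PMA, against 7.17, 7.20 and 7.16 in vehicle. PMA arrays were higher throughout, by a small amount. The differences were 0.37 (SE 0.10, adjusted p 0.00838 by limma) and 0.32 (SE 0.10, adjusted p 0.0223). The second was lost without PMA replicate 3 (adjusted p 0.0689) or without vehicle replicate 1, 2 or 3 (0.0556, 0.0505 and 0.0678), and both were lost on the arrays numbered 2 and 3 alone (0.0770 and 0.0582).

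Of the genes that recognise damage for nucleotide excision repair, DDB2 fell and XPC had no call. DDB2, which finds ultraviolet damage in chromatin, was 6.74, 6.95 and 7.08 (log2) in PMA with doxycycline, against 8.38, 8.47 and 8.37 in vehicle with doxycycline. It was 7.01, 7.0 and 7.06 in PMA, against 8.35, 8.36 and 8.45 in vehicle. The groups did not overlap, with differences of -1.48 (SE 0.11, adjusted p 1.17e-07 by limma) and -1.36 (SE 0.11, adjusted p 2.96e-07). XPC, which finds distorted DNA, differed by -0.22 and -0.17 (adjusted p 0.137 and 0.272). All PMA arrays of XPC lay below their vehicle arrays in each comparison, which was so of 24.4% of all genes with doxycycline and 23.0% without.

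The same roles were read from 140 further repair genes, of which 128 were measured. With doxycycline 73 fell and 14 rose, and without it 75 fell and 11 rose, with medians of -0.49 and -0.57. As shares these were 57.0% lower and 10.9% higher with doxycycline, beside 19.5% and 13.0% of all genes, and 58.6% lower and 8.59% higher without, beside 18.9% and 12.7%, so the rises were no more frequent than over all genes. In homologous recombination 21 of 29 fell with doxycycline and 22 without, with medians of -0.73 and -0.67, which were nearer to 0 than those of the further sensor and checkpoint genes, -0.88 and -0.81. RAD54B, a relative of RAD54L, differed by -2.36 and -1.92, and RMI2, a partner of BLM, by -2.35 and -2.20. SWI5, an accessory recombination factor, rose by 0.37 and 0.38. Further Fanconi anemia genes split into 6 falls and 3 rises with doxycycline and 7 and 3 without, of 15, with medians of -0.45 and -0.47. UBE2T, the ubiquitin-conjugating enzyme that works with FANCL, fell (-1.62 and -1.44), and USP1, which removes the mark again, fell too (-1.57 and -1.51). ERCC1, a nuclease subunit, rose by 0.70 and 0.79, and MAD2L2, part of a bypass polymerase, by 0.82 and 0.59.

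In mismatch repair 4 of 7 further genes fell with doxycycline and 5 without, with medians of -0.62 and -0.77, among them the ligase LIG1 (-1.79 and -1.93) and the sliding clamp PCNA (-1.72 and -1.67), which also serve replication. MLH3, a MutL family protein, rose by 1.71 and 1.39. In end joining 2 of 6 fell with doxycycline and 1 without, with medians of -0.17 and -0.09, and the 16.7% without doxycycline was under the 18.9% of all genes. The polymerase POLM fell in both (-0.44 and -0.35). Of 23 further sensor and checkpoint genes 15 fell in each comparison. TIMELESS, which steadies replication forks, fell (-2.43 and -2.26), and CDC25A, the phosphatase that drives entry into S phase, fell too (-2.19 and -1.70). CDKN1A, which encodes the cyclin-dependent kinase inhibitor p21, rose by 4.0 and 4.59, and HUS1, a subunit of the checkpoint clamp, by 0.84 and 0.68.

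In base excision repair 11 of 20 further genes fell in each comparison, with medians of -0.55 and -0.46, and with the glycosylase NEIL3 (-2.46 and -2.51) and the flap nuclease FEN1 (-2.11 and -1.93) changing most, and the glycosylase MPG rose by 0.57 and 0.71. In nucleotide excision repair 8 of 16 fell in each, with medians of -0.36 and -0.30, among them GTF2H4, a subunit of TFIIH (-0.87 and -0.67), and the damage verifier XPA (-0.87 and -0.60). UVSSA, which acts at stalled RNA polymerase, rose by 0.98 and 0.75, and CETN2, a partner of XPC, by 0.62 and 0.32. Of 12 genes of damage bypass and direct reversal 6 fell in each comparison, with medians of -0.58 and -0.68. The demethylase ALKBH3 fell (-1.55 and -1.26) and the helicase HLTF did too (-1.14 and -1.06), while UBE2B, which marks PCNA together with RAD18, rose by 0.77 and 0.59.

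**Figure D3:**
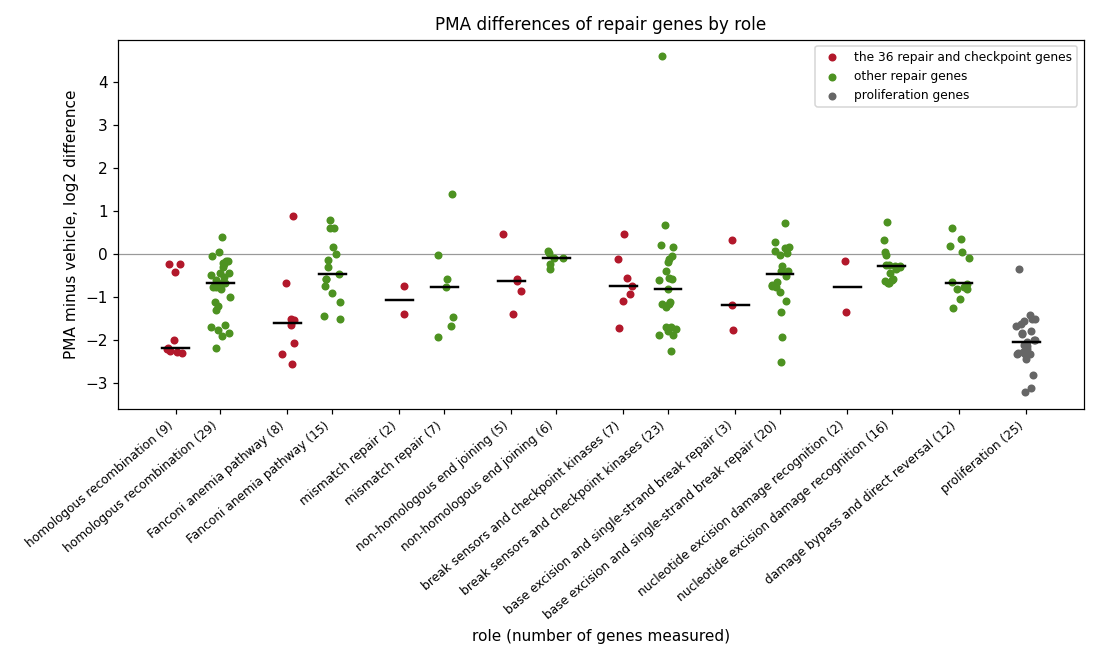
PMA minus vehicle without doxycycline (log2 difference, 1 point per gene, bar at the median) by role, for the 36 listed genes, 128 further repair genes and 25 proliferation genes. The recombination and Fanconi anemia members have medians of -2.20 and -1.60, beside -2.05 for the proliferation genes, and CDKN1A stands alone at 4.59.

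Almost all of a list of 25 genes known to be transcribed in dividing cells fell with PMA. Of the 36 repair genes 26 fell in both comparisons and 3 rose in both. With doxycycline 25 of the 25 dividing-cell genes fell, beside 19.5% of all genes, and without it 24, beside 18.9%. Their medians were -2.12 and -2.05. E2F8, a repressor of the E2F family (-3.51 and -3.21), and GINS2, a subunit of the replicative helicase (-3.52 and -3.11), fell by over 3 log2 units, and the smallest change was in E2F1 (-0.58, adjusted p 0.0352, and -0.35, adjusted p 0.217, by limma), an activator of that family. The part of proliferation in the falls of the repair genes was not tested.

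The median difference of the 36 genes was -1.01, -1.21 and -1.22 with doxycycline and -0.84, -1.28 and -1.15 without, for arrays numbered 1, 2 and 3. The arrays numbered 1, which had the high ACTB ratio, gave the median nearest to 0 in each comparison, and the proliferation list did likewise, with -1.56, -2.26 and -2.42 and with -1.55, -2.44 and -2.19. The part of RNA quality in the size of the differences was not tested. On the arrays numbered 2 and 3 alone 27 genes fell and 3 rose with doxycycline, and 28 fell and 2 rose without. The share of all genes called in that fit is not given here. The shares given above belong to the fit over all arrays.

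Several genes could be read from more than 1 probe set. The 36 genes had 82 probe sets in all, 20 genes had several, and none had probe sets called in opposite directions. Of the 46 probe sets that were not used for their gene, 21 were lower and 3 higher with doxycycline, and 23 lower and 2 higher without. Over all 41091 single-gene probe sets 16.1% were lower and 11.7% higher with doxycycline, and 15.5% and 11.3% without. All 4 probe sets of CHEK1 fell in both comparisons, with differences from -2.02 to -0.99 and from -2.12 to -0.88. All 3 of FANCI and all 3 of BARD1 fell as well. Of the 6 ATM probe sets 4 rose with doxycycline and 2 without, and none fell. Of the 46, 18 had a mean under 5 (log2), below the array median, and 4 of these were lower without doxycycline, against 19 of the other 28.

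**Figure D4:**
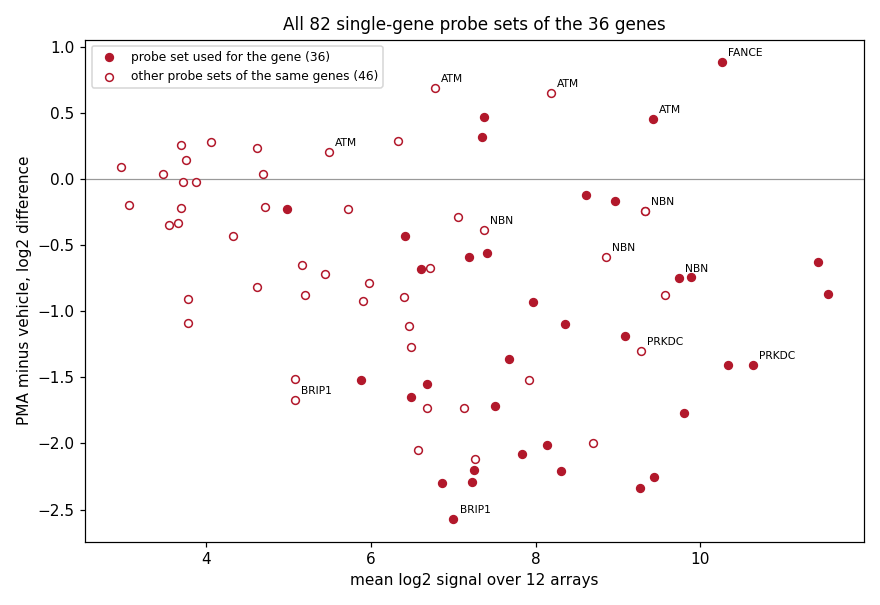
PMA minus vehicle without doxycycline (log2 difference) against mean log2 signal over 12 arrays for the 82 probe sets of the 36 genes, with filled points for the probe set used for each gene and open points for the other 46. Of the 18 open points with a mean under 5, 4 were called lower, against 19 of the 28 others.

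The second question was whether inducing the hairpin changed the repair genes. In PMA-treated cells limma called 0 of the 36 genes lower and 0 higher with doxycycline, beside 0% and 0.00506% of all genes, and 3 had an unadjusted p under 0.05, beside 6.14% of all genes. In vehicle-treated cells it also called 0 in each direction, beside 0% and 0% of all genes, and 2 had an unadjusted p under 0.05, beside 2.58%. The median difference of the 36 was -0.10 in PMA and -0.11 in vehicle, beside -0.01 and 0.02 over all genes. The 95% intervals of single genes lay within -0.89 to 0.70 in PMA and -0.94 to 0.52 in vehicle.

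The 3 genes with the smallest p in PMA were BRIP1, FANCL and BRCA1. BRIP1 was 5.52, 5.41 and 5.36 (log2) in PMA with doxycycline, against 6.32, 5.57 and 5.86 in PMA, a difference of -0.49 (SE 0.19, adjusted p 0.751 by limma). FANCL was 6.55, 6.76 and 6.50 in PMA with doxycycline, against 7.19, 6.89 and 6.82 in PMA, a difference of -0.36 (SE 0.16, adjusted p 0.794). BRCA1 was 6.99, 6.88 and 6.86 in PMA with doxycycline, against 7.48, 7.15 and 7.41 in PMA, a difference of -0.44 (SE 0.20, adjusted p 0.807). In these 3 and in XRCC6 the groups did not overlap, with the lower signal under doxycycline, as in 5.90% of all genes, and XPC was higher under doxycycline without overlap, as in 4.83%.

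In vehicle the smallest p belonged to FANCL, CHEK1 and PRKDC, with differences of -0.37 (SE 0.16), -0.31 (SE 0.14) and -0.26 (SE 0.13) and an adjusted p of 1 by limma for each. Their groups overlapped. NBN was lower without overlap in vehicle with doxycycline, as in 3.47% of all genes, and XRCC4 was higher, as in 5.08%.

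Arrays of 1 number with and without doxycycline deviated together within each agent, so the differences were also fitted by pair. In PMA numbers 2 and 3 correlated slightly more with an array of another number, so the pairing there was clear only for number 1. The paired fit called 0 of the 36 genes in either agent. Over all genes it called 26 lower and 27 higher in PMA (0.131% and 0.137%), against 0 and 1 without the pairing, and 0 in each direction in vehicle (0% and 0%). At an unadjusted p under 0.05 it had 8 genes in PMA, all lower, beside 7.97% of all genes, and 4 in vehicle, all lower, beside 2.55%. BRIP1 differed by -0.80, -0.16 and -0.49 in the 3 PMA pairs (adjusted p 0.124 by limma), BRCA1 by -0.50, -0.28 and -0.55 (adjusted p 0.162), and FANCL by -0.64, -0.13 and -0.32 (adjusted p 0.210). The signal was lower with doxycycline in 3 of 3 pairs in 8 genes in PMA and 17 in vehicle, beside 18.5% and 13.5% of all genes. It was higher in 3 of 3 in 1 gene, XPC, and in 3 genes, beside 14.1% and 16.7%. The genes were read on the same arrays, so these counts do not stand for independent observations.

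**Figure D5:**
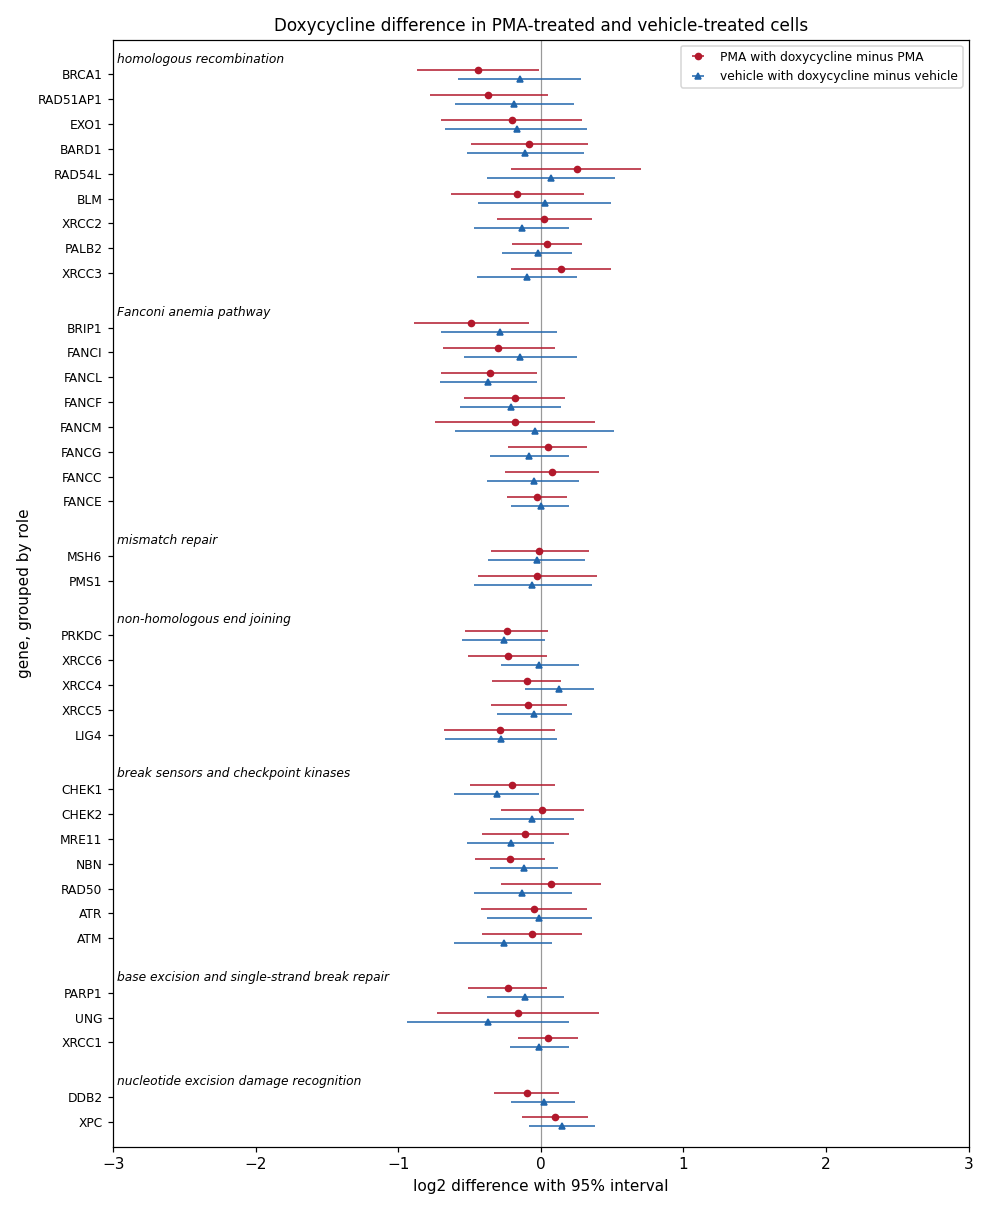
Log2 difference of doxycycline minus no doxycycline for each of the 36 genes, in PMA-treated and in vehicle-treated cells, with 95% intervals from limma. No gene had an adjusted p under 0.05, and the differences run from -0.49 to 0.25 in PMA and from -0.37 to 0.15 in vehicle.

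Whether the doxycycline difference itself differed between agents was tested as an interaction. Limma called 0 of the 36 genes, beside 0% of all genes, and 0 had an unadjusted p under 0.05, beside 2.62%. The smallest p belonged to XRCC4, with a difference of differences of -0.23 (95% interval -0.57 to 0.11), XRCC6, with -0.22 (-0.62 to 0.17), and XRCC3, with 0.24 (-0.25 to 0.74), each with an adjusted p of 1. Over the 36 genes the intervals reached from -0.92 in FANCM to 1.01 in UNG. They are not adjusted for the number of genes, whereas a call needed an adjusted p. The intervals therefore do not give the smallest interaction that could have been called, which was not worked out.

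Of the 128 further repair genes limma called 0 in either doxycycline comparison and 0 in the interaction, with 12 in PMA, 2 in vehicle and 2 in the interaction at an unadjusted p under 0.05, beside 6.14%, 2.58% and 2.62% of all genes. In the fit by pair RNF168, a ubiquitin ligase at broken DNA, passed in PMA. It averaged 9.41 ± 0.35 with doxycycline and 8.66 ± 0.15 without (log2, SD, n = 3), a difference of 0.75 (adjusted p 0.0303 by limma). The fit by pair called 0.137% of all genes higher in PMA, and without the pairing RNF168 had no call. The PMA pairs of numbers 2 and 3 rest on the sample titles, and RNF168 was read from 1 of its 2 probe sets.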

How the data were processed

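Total RNA (100 ng) was labelled with a 3′ IVT kit and hybridised to 12 Affymetrix HG-U133 Plus 2.0 arrays. RMA made the deposited log2 values, per the submitters' processing notes, which name no version; no further scaling was applied. Of 54675 probe sets, 41091 had 1 gene symbol, 1801 several, 11721 none in the annotation used here, and 62 were controls; the last 3 kinds were left out. Symbols were updated through Entrez numbers.

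Group means were fitted over all 12 arrays and 19775 genes in limma 3.58.1 (lmFit, eBayes) under R 4.3.3, which had 8 residual and 5.6 prior degrees of freedom. Tests were two-sided, and a call needed an adjusted p under 0.05 (Benjamini-Hochberg over all genes). The procedure was tested on simulated data. The number of arrays limits the precision, and p-values measure the spread between the replicates that the labels call biological.

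The replicate numbers come from the sample titles. Deviations from group means correlated at 0.637, 0.288 and 0.324 between PMA arrays with and without doxycycline of numbers 1 to 3. In vehicle they correlated at 0.57, 0.254 and 0.308. All were over 0.1, and by this rule these arrays were taken as pairs. Deviations cancel out over the arrays of a group, so a deviation shared by the arrays numbered 1 also raises the values of the other numbers. The rule alone therefore does not establish the pairs, in either agent. The highest correlation of each doxycycline array with an array of another number was -0.413, 0.302 and 0.394 in PMA. In vehicle it was -0.334, 0.12 and 0.241. The PMA pairs of numbers 2 and 3 therefore rest on the titles. Between PMA and vehicle the correlations of arrays of the same number did not all pass 0.1.

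The 41 genes, the further lists and the tests were chosen with earlier results of these data known. Given on every array are, per role, the called gene with the largest fall and that with the largest rise over both PMA comparisons; for doxycycline the 3 genes with the smallest p are named; for further genes up to 2 per role and direction. LIG4, the UNG arrays and RNF168 were added after their values were seen. Promoters come from RefSeq, build GRCh38.p14; FANCI, NBN, PRKDC and XRCC5 have none printed or counted. Alternatives tried were averaging a gene's probe sets, a fit over all probe sets, removal of genes with a mean under 5, cyclic loess, quantile normalization, trended robust eBayes, replicate blocks, single arrays left out, and the arrays numbered 2 and 3 alone.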

Additional observations from a re-analysis of the deposited data

How the results depend on the processing

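With single arrays left out, 24 to 27 repair genes were lower and 3 to 4 higher with PMA and doxycycline. Without doxycycline 26 to 28 were lower and 1 to 3 higher, and the genes that drop out of the last count are ATM and XRCC1. Shares of all genes called in the alternative fits are not given here, so such counts show only how stable the calls were. In the fit over all arrays 8.33% of the 36 genes were higher in each comparison, beside 13.0% and 12.7% of all genes. Each of 27 of 36 genes with doxycycline and 30 of 36 without kept its call and sign under every alternative; the others are FANCC, LIG4, NBN, PMS1, RAD50, UNG, XRCC1, XRCC2 and XRCC3, and ATM, ATR, LIG4, RAD50, XRCC1 and XRCC2. The sign turned in genes without a call: XRCC3 with doxycycline ranged from -0.03 to 0.07 with single arrays left out, below 0 without vehicle with doxycycline replicate 2, and ATR without doxycycline ranged from -0.25 to 0.03, above 0 without PMA replicate 2, and was 0.02 after cyclic loess; the cause was not tested. A replicate block over all groups, whose numbers did not all pair arrays across agents, left the counts at 26 and 3 with doxycycline and at 27 and 3 without. The block of 6 pairs gave 1 further repair gene higher with doxycycline in PMA, RNF168, against 0 in the fit without it; it changed no other count of doxycycline calls among the listed and further repair genes. Over all genes it called 26 lower and 27 higher in PMA against 0 and 1, and 1 higher in the interaction against 0. For both doxycycline comparisons and the interaction, 0 of the 36 genes were called under every alternative run. Probe sets below the array median, and intervals of up to about 1 log2 unit, limit what the null results show.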
